A study of Mus musculus with 4 samples.

Results

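The genes described here are *Atf4* and 9 genes of the integrated stress response and of serine and one-carbon metabolism, chosen by symbol as *Atf4*, *Ddit3*, *Trib3*, *Chac1*, *Asns*, *Psat1*, *Phgdh*, *Shmt2*, *Mthfd2* and *Slc7a11*. Of these 10 genes, 9 were among the 12067 genes of the count table. *Trib3*, a pseudokinase that inhibits Akt, was not, so its expression was not analysed and only its promoter was searched. The data were Quant-seq 3′ mRNA counts of 4 libraries of KL cells (myeloid progenitors that are Lin-, cKit+ and Sca1-), which were sorted as CD45.2+ donor-derived cells from the bone marrow of *Ptprca* recipients 20 weeks after transplantation of whole marrow. The 2 BcorΔE9-10 libraries had the genotype scl-Cre-ERT +; Bcorfl/y and the 2 BcorWT libraries Bcorfl/y without the Cre. By the study's methods the donors were male and had been given tamoxifen in both genotypes, the recipients were female and sub-lethally irradiated, and the inducible Cre was a *Tal1* (SCL) transgene that is active in haematopoietic stem cells. Both groups carry the floxed *Bcor* allele, from which Cre removes exons 9 and 10, and the host keeps CD45.1 cells of its own. By the methods, mice of the study were dosed with tamoxifen as adults of a few months. The age of the donor of each library, and whether each library came from 1 recipient, are not given in the sources used here, so p-values measure the spread between these libraries.

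The integrated stress response starts from kinases that phosphorylate the translation factor eIF2α when amino acids or haem run short, when proteins misfold in the endoplasmic reticulum, or when viral RNA is sensed. General translation then falls while the mRNA of *Atf4* is translated more, so that Atf4 protein can rise without a change of its transcript. Atf4 is a bZIP transcription factor that pairs with C/EBP proteins on C/EBP-ATF response elements and raises genes for amino acid synthesis and uptake, among them the enzymes that make serine and pass its carbon to folate. In haematopoietic cells the haem-sensing kinase Hri (*Eif2ak1*) is best known from erythroid precursors, and stem and progenitor cells use the same response under amino acid shortage.

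Response elements were looked for in RefSeq promoter windows (GRCm38.p6) that run from 250 bases before to 50 after a transcript start. The motif searched was TGATGNAA on both strands, in which N is any base. The 10 genes had 11 windows, of which 4, each of another gene, held the motif (36.4%), beside 3.97% of all 32851 windows. Because the members were chosen as genes of this response, their share with the motif is a description and no test. These 4 stretches are shown because they carry the letters by which Atf4 is known to act. They are written 5′ to 3′ on the gene's strand with the matches in capitals.
Chac1: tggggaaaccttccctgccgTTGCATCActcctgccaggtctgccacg
Asns: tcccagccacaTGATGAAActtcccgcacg
Slc7a11: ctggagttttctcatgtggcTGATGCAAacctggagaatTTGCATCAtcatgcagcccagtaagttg
Trib3: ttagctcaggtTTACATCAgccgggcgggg
The *Chac1* stretch is chr2:119351029-119351076 on the plus strand and lies upstream of the gene. The *Asns* stretch is chr6:7693214-7693243 on the minus strand, upstream of the RefSeq start but inside the gene as GENCODE M21 draws it, which starts 45 bases further upstream. The *Slc7a11* stretch is chr3:50443633-50443699 on the minus strand, upstream of the gene, and holds 2 matches on opposite strands. The *Trib3* stretch is chr2:152344028-152344057 on the minus strand, with its match just after the RefSeq start. The windows of *Atf4*, *Ddit3*, *Psat1*, *Phgdh*, *Shmt2* and *Mthfd2* held no match, which says only that these letters were not in those windows. The 3 measured genes with a match were also the members with the fewest counts, between 1 and 67 in any library, whereas the 6 without a match had at least 106.

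Counts summed to between 3825289.5 and 6253100.5 per library. The floor of 3 counts corresponded to between 0.489 and 0.876 CPM (counts scaled by library size and TMM factor), for counting error only. A single rRNA-like transcript, *Gm42418*, took 16.3 and 14.3% of the counts in BcorΔE9-10 replicates 1 and 2, 27.9% in BcorWT replicate 1 and 1.43% in BcorWT replicate 2, and log2 CPM of the 2 BcorWT libraries had the lowest correlation across genes of the 6 pairs of libraries (Pearson's r = 0.893, genes not being independent replicates). *Bcor* itself had 104 and 113 counts in BcorΔE9-10 and 58 and 79 in BcorWT. These counts do not check the genotype, because 3′ reads need not cover the deleted exons and their position was not examined. Of the markers of the sort, *Kit* had between 156 and 380 counts and *Ly6a* (Sca-1) between 0 and 20, while the granulocyte lineage markers *Itgam* and *Ly6g* had at least 371 and 214 counts in every library although the gate was lineage-negative.

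The question put to these genes was whether the stress and serine genes differed between BcorΔE9-10 and BcorWT KL cells. By edgeR's quasi-likelihood test, with Benjamini-Hochberg adjustment over all 12067 genes, 0 of the 9 members passed an adjusted p of 0.05, and 0 had an unadjusted p under 0.05. Among all genes tested, 2 passed (0.0166%), both higher in BcorΔE9-10, a split of directions that limma-voom kept (4 of 4 higher) and other fits did not (19 of 43 higher with DESeq2, and 183 of 596 without BcorWT replicate 1), and at the unadjusted threshold 1.34% of genes were higher and 3.07% lower. DESeq2 and limma-voom likewise called 0 members after adjustment, and at an unadjusted p under 0.05 DESeq2 called 1 member, *Shmt2*, and limma-voom 0. The fitted log2 fold change (log2FC, BcorΔE9-10 minus BcorWT) was below 0 for 7 of the 9 members, beside 52.3% of all genes. Its median was -0.21 over the members and -0.03 over all genes. Both BcorΔE9-10 libraries lay below both BcorWT libraries in CPM for 4 members (*Ddit3*, *Asns*, *Psat1* and *Shmt2*), where 17.1% of all genes did so, and above them for 0 members, where 16.8% of all genes did so. In bulk libraries, fewer cells of a type and less RNA per cell cannot be told apart. With 2 libraries a genotype, an exact permutation test of a single gene could not reach the threshold, so the fit across all genes was used.

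**Figure D1:**
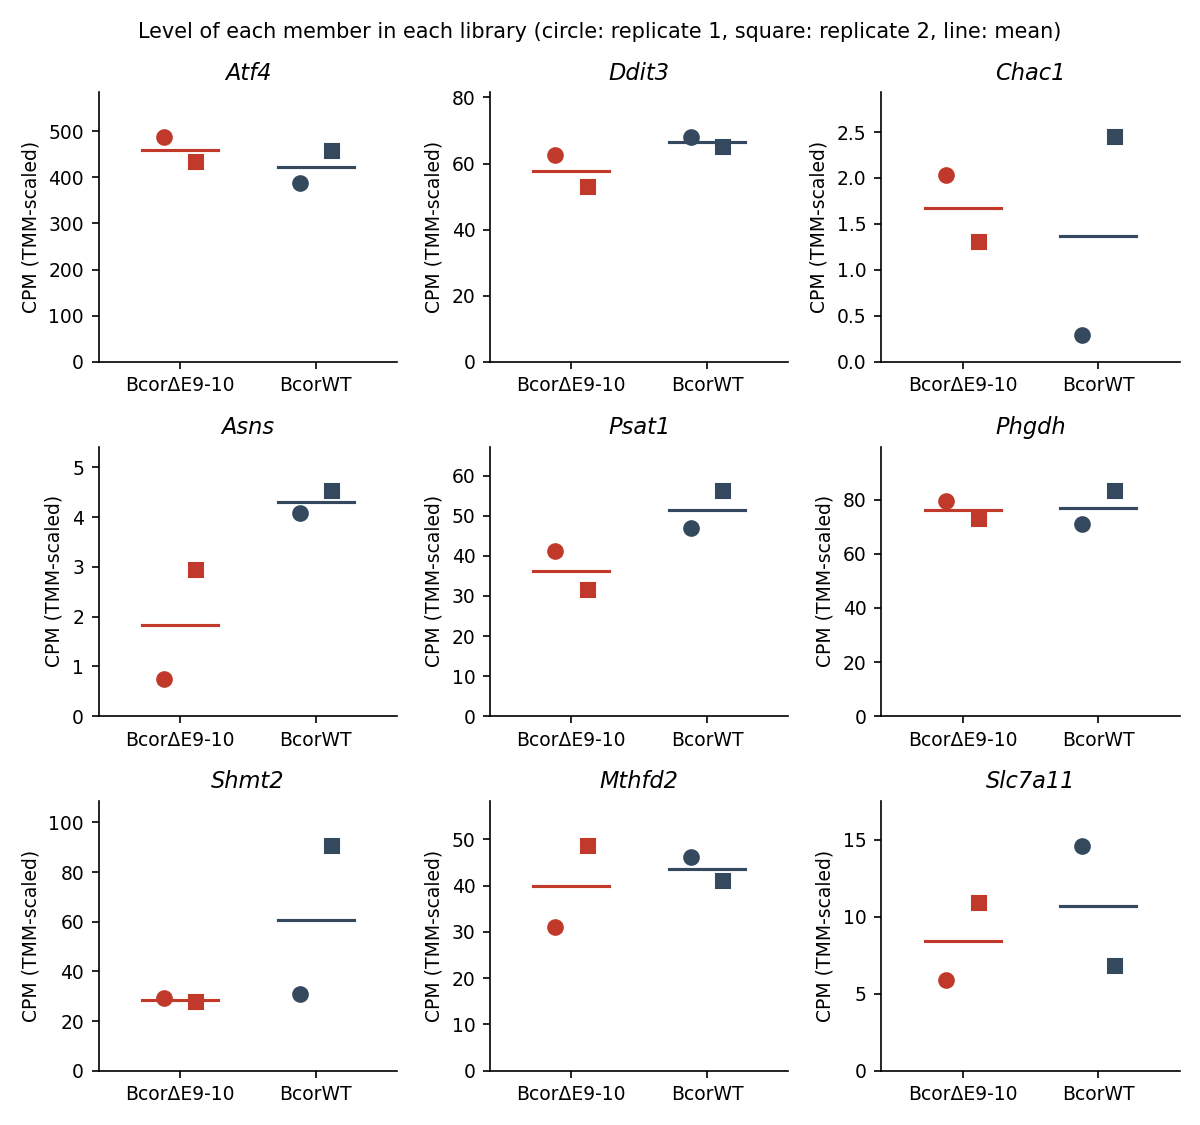
Level of each member in CPM (TMM-scaled, each panel from 0) in the 4 libraries; circles are replicate 1, squares replicate 2 and lines the mean of each genotype. *Atf4*, *Phgdh*, *Mthfd2*, *Slc7a11* and *Chac1* overlapped between the genotypes, and *Shmt2* was at 90.5 CPM in BcorWT replicate 2 against 27.7 to 31.0 CPM in the other 3 libraries.

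*Atf4* (ENSMUSG00000042406, chr15:80255184-80257541, plus strand, GRCm38) encodes the factor that executes the response. It had 2640 and 2655 counts in BcorΔE9-10 and 1327 and 2435 in BcorWT, or 488 and 433 CPM against 388 and 458 CPM. The groups overlapped, with BcorΔE9-10 replicate 2 below BcorWT replicate 2. The log2FC was 0.12 (standard error 0.32, 95% interval -0.62 to 0.87, edgeR adjusted p = 0.974), and 0.0027 to 0.25 when 1 library was left out. With at least 1327 counts in each library, *Atf4* was the most counted member, and a difference of its transcript was not detectable. As the response acts on translation of this mRNA, the counts carry no information on Atf4 protein.

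*Ddit3* (ENSMUSG00000025408, chr10:127290774-127296288, plus strand) encodes Chop, a C/EBP-related factor downstream of Atf4 that is known for promoting cell death under prolonged stress. Its counts were 338 and 324 in BcorΔE9-10 and 233 and 345 in BcorWT, or 62.5 and 52.8 CPM against 68.0 and 64.9 CPM. Both BcorΔE9-10 libraries were below both BcorWT libraries by a small margin. Its log2FC was -0.21 (standard error 0.31, 95% interval -0.91 to 0.50, edgeR adjusted p = 0.961), and -0.33 to -0.086 when 1 library was left out. GENCODE M21 holds a second, overlapping record named *Ddit3*, and *Mars* overlaps it on the opposite strand. Whether the counting used the strand is not given in the sources used here, so these counts are uncertain to that extent. *Ppp1r15a* encodes Gadd34, a subunit of the phosphatase that acts on eIF2α, and is known as a target of Chop. It had 895 and 722 counts in BcorΔE9-10 and 771 and 1269 in BcorWT. In CPM this was 165 and 118 against 225 and 239, without overlap, for a log2FC of -0.71 (standard error 0.33, 95% interval -1.48 to 0.05) that did not pass (edgeR adjusted p = 0.945, unadjusted 0.0636).

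*Chac1* (ENSMUSG00000027313, chr2:119351229-119354381, plus strand) encodes an enzyme that degrades glutathione and is known as a sensitive reporter of Atf4 activity. It was close to the limit of detection, with 11 and 8 counts in BcorΔE9-10 and 1 and 13 in BcorWT. Both BcorΔE9-10 libraries lay between the 2 BcorWT libraries. At this depth a difference was not detectable (log2FC 0.18, 95% interval -2.08 to 2.44, edgeR adjusted p = 0.990), and it moved to 2.41 without BcorWT replicate 2 and to -0.56 without BcorWT replicate 1. *Slc7a11* (ENSMUSG00000027737, chr3:49892526-50443614, minus strand), the cystine importer that feeds glutathione synthesis, had 32 and 67 counts in BcorΔE9-10 and 50 and 36 in BcorWT. The CPM were 5.91 and 10.9 against 14.6 and 6.77, so that the spread within each genotype was larger than the difference between them. The fitted log2FC was -0.32 (standard error 0.55, 95% interval -1.60 to 0.95, edgeR adjusted p = 0.964), and it was 0.31 without BcorWT replicate 1 and 0.04 without BcorΔE9-10 replicate 1. Its partner *Slc3a2*, the heavy chain that carries Slc7a11 to the membrane, had 302 and 304 counts against 170 and 435, a log2FC of -0.32 (standard error 0.35, edgeR adjusted p = 0.950) that was -0.64 without BcorWT replicate 1 and 0.085 without BcorWT replicate 2. Where values without replicates 1 and 2 are given together, each library was left out in turn, in that order.

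*Asns* (ENSMUSG00000029752, chr6:7675169-7693254, minus strand) encodes asparagine synthetase, whose response element above is among the best known of Atf4. It had 4 and 18 counts in BcorΔE9-10 and 14 and 24 in BcorWT, or 0.739 and 2.93 CPM against 4.09 and 4.52 CPM. The groups did not overlap, but the 2 BcorΔE9-10 libraries differed from each other 3.97-fold and the first was near the floor of its library, which was 0.554 CPM. The fit gave a log2FC of -1.20 (standard error 0.79, 95% interval -3.02 to 0.61, edgeR adjusted p = 0.945). It ranged from -2.50 without BcorΔE9-10 replicate 2 to -0.55 without BcorΔE9-10 replicate 1, so its size rested on that library.

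Serine is made from the glycolytic intermediate 3-phosphoglycerate by Phgdh, Psat1 and Psph in that order. *Phgdh* (ENSMUSG00000053398, chr3:98313170-98339990, minus strand), the first enzyme, had 430 and 447 counts in BcorΔE9-10 and 243 and 441 in BcorWT, or 79.5 and 72.9 CPM against 71.0 and 83.0 CPM. Both BcorΔE9-10 libraries fell within the range of the BcorWT libraries. The log2FC was -0.02 (standard error 0.31, 95% interval -0.73 to 0.69, edgeR adjusted p = 0.996). Several annotated pseudogenes match the last 300 bases of a *Phgdh* transcript at 95% identity or more, so the counting could have split its reads. The closest of them, *Gm7901*, is 99.0% identical and had 5, 24, 11 and 4 counts in the table, in the order of BcorΔE9-10 replicates 1 and 2 and BcorWT replicates 1 and 2, which is small beside *Phgdh*.

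*Psat1* (ENSMUSG00000024640, chr19:15904678-15947337, minus strand), the second enzyme, had 223 and 193 counts in BcorΔE9-10 and 161 and 298 in BcorWT. In CPM it stood at 41.2 and 31.5 against 47.0 and 56.1, with means of 36.3 ± 6.90 (SD, n = 2) and 51.5 ± 6.41 (SD, n = 2). Both BcorΔE9-10 libraries lay below both BcorWT libraries. Its log2FC was -0.51 (standard error 0.32, 95% interval -1.26 to 0.24, edgeR adjusted p = 0.945). It was between -0.71 and -0.32 when 1 library was left out, so its direction did not rest on a single library, although it did not pass the test. *Psph*, the last enzyme, had 43 and 43 counts in BcorΔE9-10 and 45 and 50 in BcorWT, 7.95 and 7.01 CPM against 13.1 and 9.41 CPM. Its groups did not overlap either, and its log2FC was -0.58 (standard error 0.44, 95% interval -1.61 to 0.44, edgeR adjusted p = 0.945), with -0.34 and -0.81 without BcorWT replicates 1 and 2.

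**Figure D2:**
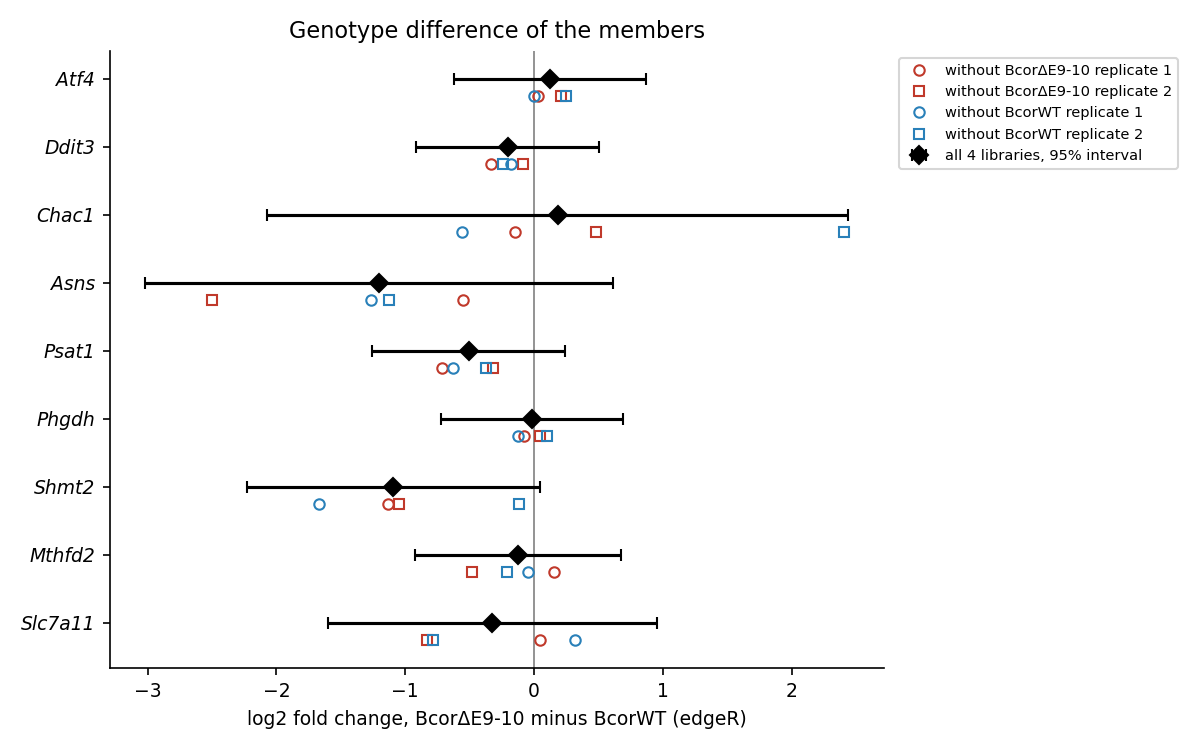
Log2FC of each member (log2 fold change, BcorΔE9-10 minus BcorWT, edgeR) from all 4 libraries as black diamonds with 95% intervals, and with 1 library left out as open symbols. Each interval includes 0, and *Shmt2* moved between -1.67 without BcorWT replicate 1 and -0.12 without BcorWT replicate 2.

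The mitochondrial enzymes that take serine into the folate pool are Shmt2, which splits serine into glycine and a one-carbon unit, and Mthfd2, which oxidises that unit. *Shmt2* (ENSMUSG00000025403, chr10:127517123-127522444, minus strand) had 159 and 170 counts in BcorΔE9-10 and 106 and 481 in BcorWT. In CPM it was at 29.4 and 27.7 against 31.0 and 90.5. BcorWT replicate 1 was close to both BcorΔE9-10 libraries, while BcorWT replicate 2 stood 2.92-fold above BcorWT replicate 1. The log2FC of -1.10 (standard error 0.49, 95% interval -2.23 to 0.04) had an unadjusted p of 0.0572 and an adjusted p of 0.945 in edgeR. Without BcorWT replicate 2 it was -0.12 (edgeR adjusted p = 0.986), and without BcorWT replicate 1, with a single control library left, it was -1.67 (edgeR adjusted p = 0.0164, in a fit that called 596 genes). The lower *Shmt2* of BcorΔE9-10 thus rested on a single BcorWT library. A level in BcorWT replicate 2 of at least 2 times that in every other library was shared by 521 genes of the table (4.32%). *Ndufa4l2* overlaps *Shmt2* on the opposite strand. Among the other members, *Gm3329* overlaps *Psat1* on the opposite strand and *Gm43890* overlaps *Mthfd2* on the same strand. Annotated genes overlap *Slc7a11* on both strands. For the overlaps on opposite strands, the doubt over strand given for *Ddit3* applies.

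*Mthfd2* (ENSMUSG00000005667, chr6:83305691-83325908, minus strand) did not share this pattern. It had 168 and 298 counts in BcorΔE9-10 and 158 and 218 in BcorWT, or 31.0 and 48.6 CPM against 46.1 and 41.0 CPM. BcorΔE9-10 replicate 1 was the lowest and BcorΔE9-10 replicate 2 the highest of the 4 libraries. The fitted log2FC was -0.13 (standard error 0.35, 95% interval -0.93 to 0.67, edgeR adjusted p = 0.974), and it was 0.16 without BcorΔE9-10 replicate 1.

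The members were set beside 8 lists of related genes, of which 128 of 144 listed genes were in the table. Of these, 0 passed an adjusted p of 0.05 in edgeR, DESeq2 or limma-voom, and an unadjusted p under 0.05 was reached by 1 in edgeR, 4 in DESeq2 and 3 in limma-voom, where 4.42, 4.19 and 4.27% of all genes did so. Without BcorWT replicate 1 edgeR called 8 of them after adjustment, beside 4.94% of all genes, a share near the background. The 4 eIF2α kinases are given one by one, and 0 of them passed the test with all 4 libraries. *Eif2ak1* (Hri, the haem sensor) had 285 and 313 counts in BcorΔE9-10 and 200 and 250 in BcorWT, a log2FC of -0.02 (standard error 0.31). *Eif2ak4* (Gcn2, the sensor of uncharged tRNA) was at 0.22 (standard error 0.52). *Eif2ak3* (Perk, the sensor in the endoplasmic reticulum) had 127 and 210 counts against 72 and 51, a log2FC of 0.93 (standard error 0.46, edgeR adjusted p = 0.945), whereas *Eif2ak2* (Pkr, the sensor of double-stranded RNA and an interferon-induced gene) had 56 and 89 against 53 and 182, a log2FC of -1.01 (standard error 0.47, edgeR adjusted p = 0.945). Where 16.8% of all genes were higher and 17.1% lower without overlap, groups did not overlap for either of these 2 kinases, in opposite directions. When BcorWT replicate 2 was left out, their log2FC values were 0.46 and -0.31, and when BcorWT replicate 1 was left out, 1.58 and -1.46 (edgeR adjusted p = 0.0487 and 0.0422). Over the whole list of kinases, eIF2 and eIF2B subunits, phosphatase subunits and regulators, 8 of 17 genes were above 0 and 9 below, with a median of -0.02. The subunit gene *Eif2s2* had the most counts of the list (at least 2391 in each library) and a log2FC of -0.04.

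Among the bZIP partners, *Cebpb* had 320 and 782 counts in BcorΔE9-10 and 514 and 202 in BcorWT, *Cebpg* had 80 and 145 against 101 and 100, and *Atf3*, a stress-induced repressor, had 51 and 73 against 43 and 36. The groups overlapped for all 3, and their log2FC values were -0.01, -0.32 and 0.16 (standard errors 0.63, 0.41 and 0.48). With 1 library left out, *Cebpb* ran from -0.69 to 1.29, *Cebpg* from -0.70 to 0.029 and *Atf3* from -0.23 to 0.65. Over the 10 genes of this list in the table, 3 were above 0 and 7 below, with a median log2FC of -0.15. The list's lowest value was that of *Jund*, an AP-1 subunit, at -1.08 (standard error 0.49). It had 1516 and 1289 counts against 941 and 4036, was high in BcorWT replicate 2 as *Shmt2* was, and had a log2FC of -0.17 without that library and -1.64 without BcorWT replicate 1 (edgeR adjusted p = 0.0259). The highest was *Atf2* at 0.56 (standard error 0.34, and 0.80 and 0.35 without BcorWT replicates 1 and 2).

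Of the other genes known as Atf4 targets, 9 of 16 in the table were above 0 and 7 below, with a median log2FC of 0.13. *Sesn2*, an inhibitor of mTORC1 under amino acid shortage, was the highest, with 33 and 39 counts against 8 and 22 (log2FC 0.91, standard error 0.58, and 0.58 and 1.40 without BcorWT replicates 1 and 2). *Jdp2*, an AP-1 repressor, was the lowest at -0.47 (standard error 0.34), and *Herpud1*, a component of degradation from the endoplasmic reticulum, had the most counts (1021 and 978 against 554 and 519, log2FC 0.43, standard error 0.36). Without BcorWT replicates 1 and 2 *Jdp2* was at -0.70 and -0.20, and *Herpud1* at 0.83 and 0.10. Table genes with a promoter window and the motif numbered 235, of which 121 were above and 114 below 0, with a median of 0.02. The median was -0.03 over the 8161 table genes whose windows held no match.

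Among the other serine and one-carbon enzymes, 10 of 22 were above 0 and 12 below, with a median log2FC of -0.04. The lowest was *Fpgs*, which adds glutamates that keep folates in the cell, with 156 and 155 counts against 129 and 369 (log2FC -0.99, standard error 0.38, edgeR unadjusted p = 0.0323, adjusted 0.945), and it was at -1.36 and -0.48 without BcorWT replicates 1 and 2 (edgeR adjusted p = 0.0306 without the first). The highest was *Dld*, the dihydrolipoamide dehydrogenase that the glycine cleavage system shares with other complexes, at 0.55 (standard error 0.37, and 0.89 and 0.26 without BcorWT replicates 1 and 2). *Sfxn1*, a mitochondrial serine transporter, had the most counts, 1301 and 1111 against 666 and 1159, and a log2FC of 0.03.

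Of the amino acid transporters, 3 of 11 were above 0 and 8 below (median -0.08). *Slc7a5*, the leucine importer, had 213 and 217 counts in BcorΔE9-10 and 112 and 724 in BcorWT, a log2FC of -1.18 (standard error 0.59, edgeR adjusted p = 0.945) that became 0.19 without BcorWT replicate 2 and -1.87 without BcorWT replicate 1 (edgeR adjusted p = 0.0116). *Slc7a6* was the highest at 0.42 (0.78 and 0.093 without BcorWT replicates 1 and 2), and the glutamine carrier *Slc38a2* had the most counts and was at -0.01. The cytosolic aminoacyl-tRNA synthetases, many of which Atf4 is known to induce, were 7 above and 13 below 0 of 20 (median -0.12), and ran from *Farsb* at -0.68 to *Dars* at 0.49, with *Farsa*, the most counted, at -0.61. Like *Slc7a5*, *Farsb* and *Farsa* were highest in BcorWT replicate 2, and without it they were at 0.11 and 0.05, and *Dars* at 0.18. Without BcorWT replicate 1 *Farsb* was at -1.19 (edgeR adjusted p = 0.0496), *Farsa* at -1.06 and *Dars* at 0.87.

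For the IRE1 and ATF6 arms of the unfolded protein response, 9 of 21 genes were above 0 and 12 below (median -0.10). The chaperone *Hspa5* (BiP), the most counted, had 10357 and 11112 counts in BcorΔE9-10 and 7469 and 12656 in BcorWT, a log2FC of -0.29 (standard error 0.34). *Xbp1*, the target of IRE1, was the highest at 0.39 and *Pdia4* the lowest at -0.52. Without BcorWT replicates 1 and 2 *Xbp1* was at 0.96 and -0.018, and *Pdia4* at 0.28 and -1.05. Among glutathione and Nrf2 target genes, 5 of 11 were above 0 and 6 below (median -0.08), from *Hmox1* at -1.35 (3 and 18 counts against 15 and 25) to *Txnrd1* at 0.46. *Taldo1* had the most counts and was at -0.13. *Txnrd1* was at 0.97 and 0.061 without BcorWT replicates 1 and 2, and *Hmox1* at -0.63 and -2.97 without BcorΔE9-10 replicates 1 and 2.

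**Figure D3:**
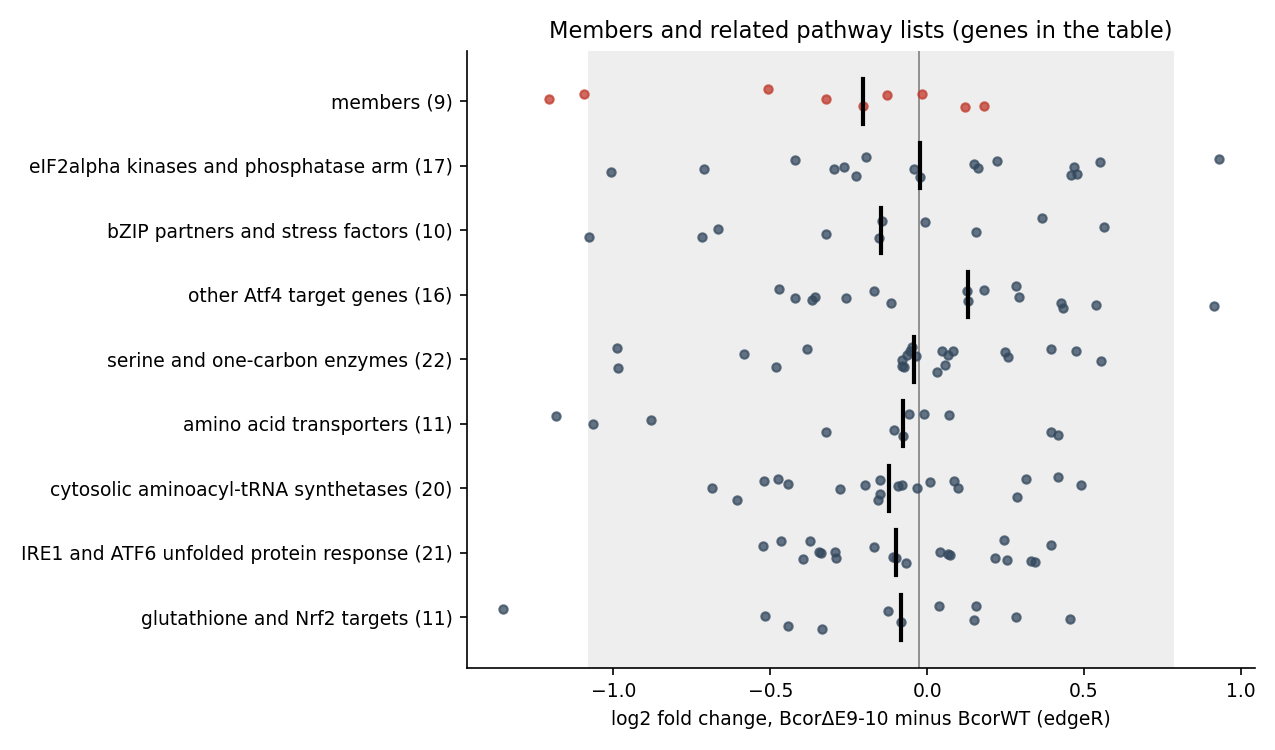
Log2FC (log2 fold change, BcorΔE9-10 minus BcorWT, edgeR) of each gene in the table, by list, with the number of genes in brackets, list medians as black bars, the median of all genes as a grey line and the central 90% of all genes (-1.08 to 0.79) in grey. List medians lay between -0.21 (the members, red) and 0.13. The band describes single genes and is no measure of how far a median may lie.

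Markers of progenitors within the KL gate, and of mature cells that its lineage antibodies (against B, T, myeloid and erythroid surface antigens, B220, CD11b and Gr-1 among them) would remove, were read in the same libraries. Erythroid markers summed to 256 and 212 CPM in BcorΔE9-10 and 95.2 and 110.7 CPM in BcorWT over 13 of 17 listed genes. Eosinophil, basophil and mast cell markers summed to 282 and 252 CPM against 593 and 768 CPM over 10 of 13 genes. In these lists 11 of 13 and 9 of 10 genes did not overlap between the genotypes, all higher and all lower in BcorΔE9-10 respectively. Of all genes, 16.8% were higher and 17.1% lower without overlap. Of the genes in these lists, 0 passed an adjusted p of 0.05 in edgeR. The lists were chosen with earlier results of these data known, so these counts describe the listed genes and are no test. Neutrophil markers followed the libraries more than the genotype, at 73749.5 and 163023 CPM against 105100 and 154001 CPM. Monocyte and dendritic markers (11 of 12 genes in the table) stood at 977 and 920 CPM against 1201 and 1982 CPM, megakaryocyte markers (6 of 10) at 113 and 147 against 115 and 275 CPM, and lymphoid markers (5 of 12) at 207 and 180 against 189 and 317 CPM. Each of these 3 sums was highest in BcorWT replicate 2, the library in which *Shmt2* was high, as were 6 of the 11, 5 of the 6 and 3 of the 5 genes of these lists (beside 34.5% of all genes). In that library *Ly6c2* gave 1365 CPM, *Gp1bb* 187 CPM and *Nkg7* 251 CPM of the 3 sums, and *Ly86*, *Vwf*, *Ebf1* and *Dntt* were lowest there. Without overlap, 5 of the 11, 2 of the 6 and 0 of the 5 genes were lower in BcorΔE9-10, beside 17.1% of all genes, and 0 were higher. The eosinophil, basophil and mast cell sum was also highest in BcorWT replicate 2, as were 7 of its 10 genes. Stem and early progenitor markers summed to 164 and 133 against 141 and 113 CPM. Of its 8 genes in the table, 6 were below 0 and 2 above, with a median log2FC of -0.08, and *Hoxa9*, 1 of the 2 above, was at 60.4 and 50.04 against 17.2 and 13.2 CPM. The part of these cell types in the values of *Shmt2*, *Psat1*, *Asns* and *Ddit3* was not tested.

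**Figure D4:**
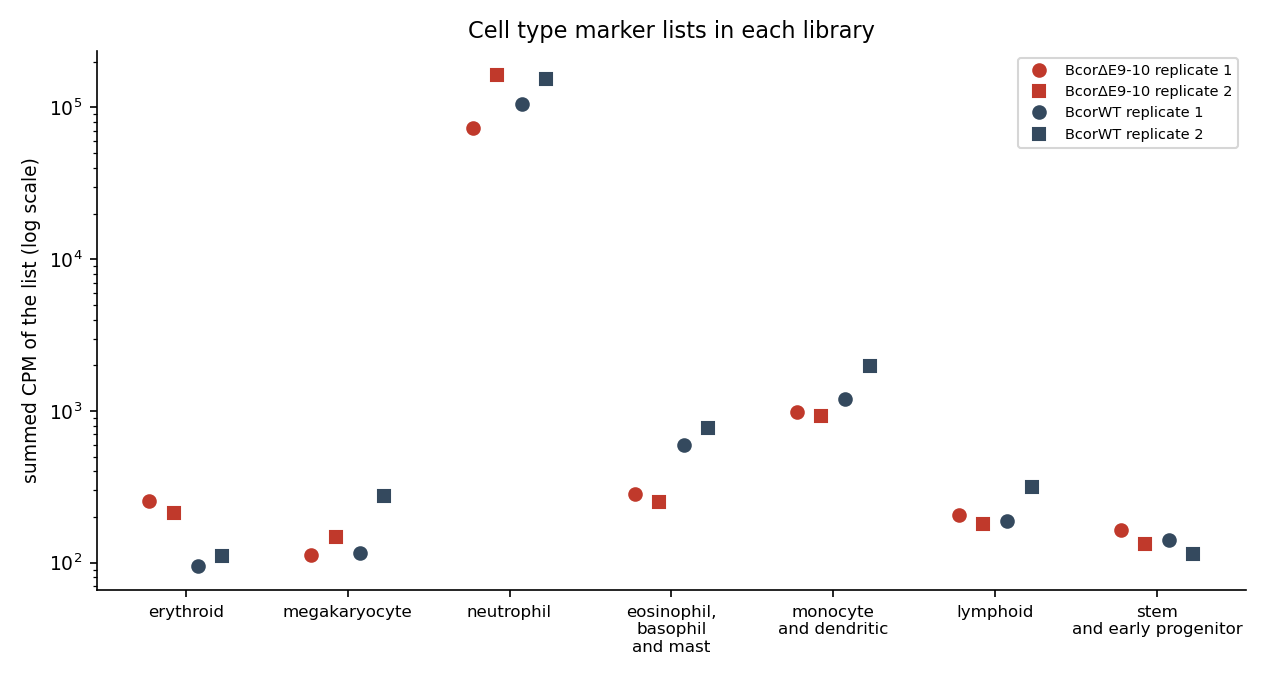
Summed CPM (log scale) of 7 marker lists in each library; red is BcorΔE9-10, dark blue BcorWT, circles replicate 1 and squares replicate 2. The erythroid sums were 212 CPM or more in BcorΔE9-10 and 110.7 CPM or less in BcorWT, and the eosinophil, basophil and mast cell sums were 282 CPM or less and 593 CPM or more.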

How the data were processed

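KL cells of transplant recipients were measured by Quant-seq in 4 libraries. Per the study's methods and processing notes, the authors removed low-quality reads, used cutadapt for trimming and HISAT2 for mapping to mm10, and counted reads on genes with featureCounts of Subread. The deposited values are these counts, unnormalized. In BcorΔE9-10 replicate 2 and BcorWT replicate 1 the deposited column was read here like expected counts, an assumption, since 1 gene (*Gm4430*) was not whole there, and was rounded. The filter behind the table is not given in the sources used here.

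The counts were fitted whole with edgeR 4.0.16 (filterByExpr, which removed 0 genes, TMM, quasi-likelihood F test, prior count 0.125) in R 4.3.3. Standard errors are the log2 fold change divided by the root of F, and 95% intervals use its degrees of freedom. Positions came from GENCODE M21, promoter windows from RefSeq, and close transcripts (75 bases or more at 95% identity) from blastn 2.17.0. The fit was tested on simulated data. Of the listed symbols, 2 were matched by synonym (*Gcn1* as *Gcn1l1* and *Dele1* as its Riken name). The members and lists were chosen with earlier results of these data known. All members were named, and per list the highest, the lowest and the most counted gene, with direct partners of members. Alternatives used DESeq2 1.42.0 and limma 3.58.1, other filters, scaling and prior counts, the replicate number as a block, no *Gm42418*, and each library left out.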

Additional observations from a re-analysis of the deposited data

How the results depend on the processing

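With 2 libraries a genotype, depth limited *Chac1* and *Asns* most. Over 106 alternative values of the 9 members' log2 fold changes, 98 kept direction and side of the threshold and 7 changed sign, all when a library was left out. Leaving out 1 library gave ranges of -0.56 to 2.41 for *Chac1*, -0.13 to 0.10 for *Phgdh*, -0.48 to 0.16 for *Mthfd2*, -0.83 to 0.31 for *Slc7a11* and -1.67 to -0.12 for *Shmt2*, whose adjusted p was 0.0164 in edgeR without BcorWT replicate 1 and otherwise between 0.880 and 1.000. Members past an adjusted p of 0.05 then numbered 0 to 1, and members with an unadjusted p under 0.05 also 0 to 1. The latter count was 1 (*Shmt2*) with at least 10 counts in every library, where *Chac1* and *Asns* were not tested, and 1 with DESeq2.

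Genes past an adjusted p of 0.05, 2 in the reported fit, numbered 5 with at least 10 counts in every library, 4 with limma-voom, 43 with DESeq2, 14 (5 of them higher) with the replicate block, and 6 to 596 when a library was left out, most without BcorWT replicate 1. Genes with an unadjusted p under 0.05, 533 as reported, were then 243 to 3013. Pathway list genes past an adjusted p of 0.05 were 0 to 8 when a library was left out, the 8 (*Eif2ak2*, *Eif2ak3*, *Farsb*, *Fpgs*, *Jund*, *Mtr*, *Slc43a1* and *Slc7a5*) without BcorWT replicate 1. At an unadjusted p they were 0 to 26, and 3 with at least 10 counts, 3 with limma-voom and 4 with DESeq2. The cause was not tested. The numbers of the replicates pair nothing in the labels, deviations of same-numbered libraries had a correlation of -0.0945, and no member's call changed under the replicate block.

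Leaving out 1 library also turned the sign of other named genes, with ranges of -0.23 to 0.65 for *Atf3*, -0.69 to 1.29 for *Cebpb*, -0.70 to 0.029 for *Cebpg*, -0.17 to 0.14 for *Eif2ak1*, -0.30 to 0.97 for *Eif2ak4*, -0.22 to 0.12 for *Eif2s2*, -1.06 to 0.048 for *Farsa*, -1.19 to 0.11 for *Farsb*, -1.05 to 0.28 for *Pdia4*, -0.19 to 0.22 for *Sfxn1*, -0.28 to 0.32 for *Slc38a2*, -0.64 to 0.085 for *Slc3a2*, -1.87 to 0.19 for *Slc7a5*, -0.27 to 0.013 for *Taldo1* and -0.018 to 0.96 for *Xbp1*. With limma-voom *Cebpb* was at 0.23 and *Slc38a2* at 0.025, and with the replicate block they were at 0.20 and 0.021.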
